A study of Mus musculus with 8 samples.

Results

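The 9 Kruppel-like factor genes followed here in maternal brain and uterus were Klf2, Klf4, Klf5, Klf6, Klf7, Klf9, Klf10, Klf13 and Klf15. They were taken by symbol from a deposited table of read counts, and each of the 9 matched 1 of its 19884 genes. All 8 libraries came from wild-type C57BL/6J females, aged 6 to 10 weeks per the labels, that had mated with fertile males and received no treatment. On day 4 of gestation, counted with the vaginal plug as day 1, whole brain was taken for 4 libraries and whole uterus for the other 4. Blastocysts had been flushed from the uterus as a check of pregnancy. There was no non-pregnant group and no other day, so the values compare organs and not states of pregnancy.

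Kruppel-like factors are transcription factors that bind GC-rich and CACCC-type DNA through zinc fingers at the end of the protein, and they share this domain with the SP factors. Some mainly activate and others mainly repress transcription, and several are induced within minutes by growth factors, flow or hormones. In the uterus, Klf9 is known as a partner of the progesterone receptor, Klf5 as a factor of the epithelium that implantation needs, and Klf15 as a brake on epithelial growth. In the brain, Klf9 is known as a gene that thyroid hormone and glucocorticoids induce in neurons, and Klf7 and Klf4 as factors with opposite effects on axon growth.

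The stretches upstream of 4 members are shown because these genes passed a test against a 2-fold difference between the organs, Klf2 and Klf4 toward uterus and Klf9 and Klf13 toward brain. Each is the 250 bases before the RefSeq start on GRCm38.p6, printed 5′ to 3′ in the direction of transcription. They lie at chr8:72318812-72319061 (plus strand), chr4:55532476-55532725 (minus strand), chr19:23140976-23141225 (plus strand) and chr7:63938916-63939165 (minus strand) in the order printed. Capitals mark CACCC and GGGCGG, letters that the family is known to bind, on either strand, so that GGGTG and CCGCCC are capitalised too. Adjacent or overlapping matches run together.
Klf2: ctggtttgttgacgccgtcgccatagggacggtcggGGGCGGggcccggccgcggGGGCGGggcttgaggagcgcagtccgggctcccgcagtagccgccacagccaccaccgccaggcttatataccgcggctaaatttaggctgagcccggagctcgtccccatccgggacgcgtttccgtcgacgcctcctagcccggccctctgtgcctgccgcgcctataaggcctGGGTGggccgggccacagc
Klf4: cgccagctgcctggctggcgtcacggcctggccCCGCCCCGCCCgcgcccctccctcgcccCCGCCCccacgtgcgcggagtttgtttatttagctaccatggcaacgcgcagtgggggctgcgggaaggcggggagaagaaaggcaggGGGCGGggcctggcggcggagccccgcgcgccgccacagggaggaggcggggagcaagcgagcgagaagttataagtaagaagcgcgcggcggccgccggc
Klf9: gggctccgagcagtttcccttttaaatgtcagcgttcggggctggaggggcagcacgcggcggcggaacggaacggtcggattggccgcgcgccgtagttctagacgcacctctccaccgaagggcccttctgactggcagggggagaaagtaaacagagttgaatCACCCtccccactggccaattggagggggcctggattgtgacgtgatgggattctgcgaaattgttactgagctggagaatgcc
Klf13: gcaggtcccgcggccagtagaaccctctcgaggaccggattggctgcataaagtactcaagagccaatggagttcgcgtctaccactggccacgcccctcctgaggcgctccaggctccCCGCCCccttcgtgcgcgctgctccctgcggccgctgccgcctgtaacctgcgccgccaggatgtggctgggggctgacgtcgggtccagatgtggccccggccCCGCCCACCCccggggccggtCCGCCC

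Klf2 held 2 matches to GGGCGG and 1 to CACCC, Klf4 held 4 and 0, Klf9 held 0 and 1, and Klf13 held 3 and 1. Upstream here means before the RefSeq start. For Klf2 that start lies 29 bases inside the GENCODE gene, so its CACCC match, at base -19, is within that gene. For Klf7, counted below, the start lies 893 bases inside the gene. Of the 9 members, 7 were in the RefSeq table; Klf5 and Klf10 were not. GGGCGG was found upstream of 6 of these 7 genes and of 32.97% of the 32536 distinct promoters of the same length in the table. CACCC was found upstream of 5 of 7 and of 52.1% of all promoters. TGACG, a part of the cyclic AMP response element, was found upstream of 5 of 7 members against 17.9% of promoters, CCAAT of 4 against 33.8%, and TATAAA of 0 against 12.3%. GC content was 59.2% to 74.0% in the members with a median of 71.2%, and the median of all promoters was 52.4%. These matches describe letters and do not show binding.

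Library totals ran from 35394603 to 47790178 counts, and the members had 147 to 8605 counts in a library. Summed CPM, which are counts scaled to a common library size after TMM normalisation, of 6 neuronal markers was 5318 to 5547 in brain and 9.14 to 13.3 in uterus. Summed CPM of 6 epithelial markers was 6.34 to 9.54 in brain and 693 to 868 in uterus, and that of 6 smooth muscle markers was 45.3 to 56.2 and 6021 to 7249, so the libraries carried the markers of their labelled organs. Among all marker genes, Cxcl15 and Spink1 of the gland list had 0 counts in brain and Otx2 of the choroid plexus list had 0 in uterus. Summed CPM of the 6 gland markers was the most uneven, at 208, 1007, 331 and 106 in uterus libraries 1 to 4. In whole organs, fewer cells of a type and less RNA per cell cannot be told apart.

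The comparison of uterus with brain asks how the members are shared between a reproductive and a neural organ of early pregnancy. All 9 passed the filter for low counts. Of these, 5 were higher in uterus (Klf4, Klf2, Klf5, Klf10 and Klf6), 3 were higher in brain (Klf9, Klf13 and Klf7), and Klf15 did not pass the test (edgeR quasi-likelihood test, Benjamini-Hochberg adjusted p at 0.05). Most genes differ between whole organs. The calls toward uterus were 55.6% of the members and 43.4% of the 16074 genes tested, and those toward brain were 33.3% of the members and 43.5% of all. With upper-quartile scaling and with library sizes alone, the members split into 6 toward uterus and 2 toward brain, and all genes into 50.85% and 37.07% with the former. When the test was set against a 2-fold change, 2 members passed toward uterus (Klf2 and Klf4) and 2 toward brain (Klf9 and Klf13). That is 22.2% of members in each direction, and 23.5% and 25.7% of all genes passed. The ranges of the organs did not overlap for 8 of 9 members, and for 84.1% of all genes tested. These shares lay near the background, so what follows describes which member stood where rather than a family that moved as one. The median size of the log2 difference was 1.08 over the members and 1.14 over the genes tested that had counts in both organs.

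**Figure D1:**
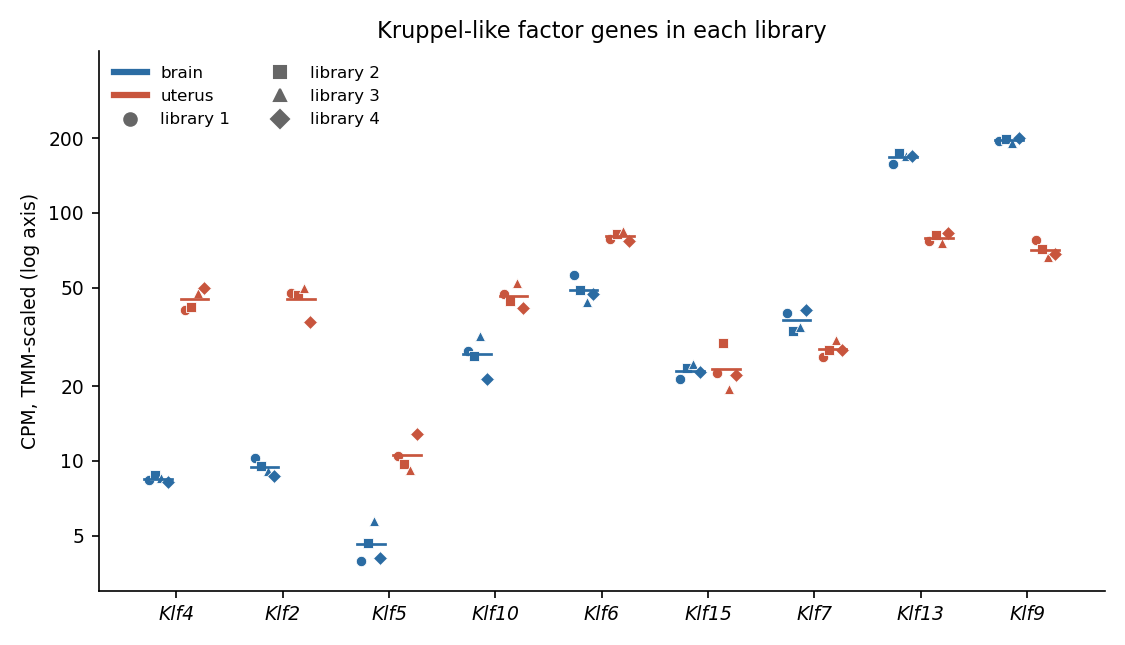
Level of each Kruppel-like factor gene as TMM-scaled CPM on a log axis, with 1 point per library and a line at the mean of each organ (n = 4). Klf4 and Klf2 stood at 8.21 to 10.3 CPM in every brain library and at 36.4 to 49.9 in every uterus library, Klf9 and Klf13 were higher in every brain library, and Klf15 overlapped.

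Klf2 and Klf4 form a pair of close relatives known from the endothelium, where both respond to blood flow, and Klf4 is also a factor of epithelial differentiation and of reprogramming. Klf2 (ENSMUSG00000055148, chromosome 8, 72319033 to 72321656, GRCm38) stood at 10.3, 9.57, 9.12 and 8.68 CPM in brain libraries 1 to 4 and at 47.6, 46.5, 49.7 and 36.4 CPM in uterus libraries 1 to 4. Every uterus library was above every brain library, with uterus library 4 the lowest of its organ. The means were 9.42 ± 0.695 and 45.0 ± 5.92 CPM (SD, n = 4), a 4.78-fold difference, with a log2 fold change of 2.26 ± 0.11 (SE, edgeR adjusted p = 8.2e-09). Klf4 (ENSMUSG00000003032, chromosome 4, 55527143 to 55532466) stood at 8.37, 8.79, 8.50 and 8.21 CPM in brain and at 40.5, 41.6, 47.4 and 49.9 CPM in uterus. Again no uterus library reached down to brain, but here library 4 was the highest of the uterus. The means were 8.47 ± 0.246 and 44.8 ± 4.50 CPM, a 5.30-fold difference, with a log2 fold change of 2.41 ± 0.08 (edgeR adjusted p = 6.7e-10). Both passed the 2-fold test under all 18 alternatives of scaling, filter, tool, threshold and library.

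Per length, Klf2 was above Klf4 in every library. The ratio of Klf2 to Klf4 in RPKM (CPM per kilobase of merged exons) was 1.84 ± 0.133 in brain and 1.68 ± 0.328 in uterus, so the pair kept similar proportions in both organs within the spread of the libraries. In uterus library 4 the ratio was 1.20, against 1.73 to 1.94 in the other three. Summed CPM of 6 endothelial markers was 105 to 119 in brain and 881 to 997 in uterus. Its lowest uterine value, 881, was in library 4, where Klf2 was also lowest. The smooth muscle and gland markers were lowest in that library too. The part of the endothelium or of these other cell types in the difference of Klf2 and Klf4 was not tested.

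Klf5, a factor of proliferating epithelium, was the least abundant member in both organs. It is encoded on chromosome 14 (ENSMUSG00000005148, 99298691 to 99315036). In brain it stood at 3.97, 4.66, 5.73 and 4.07 CPM, and in uterus at 10.4, 9.74, 9.23 and 12.8 CPM. The organs did not overlap; brain library 3 and uterus library 4 were the highest of their organ. The means were 4.61 ± 0.809 and 10.6 ± 1.58 CPM, a 2.29-fold difference, with a log2 fold change of 1.20 ± 0.16 (edgeR adjusted p = 3.4e-05). It missed the 2-fold test (adjusted p = 0.0767) and passed it with upper-quartile scaling, with library sizes alone, without brain library 3 and without uterus library 3. Means of the 6 epithelial markers, as deviations of log2 CPM from the organ mean, were highest in the same libraries as Klf5, at 0.41 in brain library 3 and 0.24 in uterus library 4, where Klf5 deviated by 0.33 and 0.29. Other lists were highest there too. Among them were smooth muscle (0.18) and choroid plexus (0.14) in brain library 3. In uterus library 4 they included the neuron (0.58), astrocyte (0.41) and oligodendrocyte (0.23) lists. The epithelial markers were low in brain, with a summed CPM of 6.34 to 9.54. Whether epithelial or other cell content bears on Klf5 was not tested.

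Klf6 and Klf10 are known as early-response genes, Klf10 as a gene that TGF-beta induces quickly and Klf6 as a broadly expressed growth regulator. Klf6 (ENSMUSG00000000078, chromosome 13, 5861482 to 5870394) stood at 56.0, 48.7, 43.8 and 47.2 CPM in brain and at 78.2, 81.8, 84.3 and 76.9 CPM in uterus. The groups were apart, with the highest brain library, library 1, still well below the lowest of the uterus. The means of 48.9 ± 5.15 and 80.3 ± 3.35 CPM differed 1.64-fold, with a log2 fold change of 0.71 ± 0.07 (edgeR adjusted p = 5.5e-06). Klf10 (ENSMUSG00000037465, chromosome 15, 38291463 to 38300706) stood at 27.9, 26.4, 31.9 and 21.4 CPM in brain and at 47.2, 44.2, 52.1 and 41.2 CPM in uterus. Library 3 was the highest and library 4 the lowest in both organs, although the labels do not say that a number marks the same mouse. The means of 26.9 ± 4.34 and 46.2 ± 4.65 CPM differed 1.72-fold, with a log2 fold change of 0.78 ± 0.12 (edgeR adjusted p = 0.000121). The ratio of Klf10 to Klf6 per length was 0.583 ± 0.127 in brain and 0.604 ± 0.0449 in uterus, a difference smaller than the spread in brain.

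Klf9 and Klf13 were the most abundant members in brain. Klf9 (ENSMUSG00000033863, chromosome 19, 23141226 to 23168134) stood at 195, 198, 192 and 201 CPM in brain and at 77.9, 71.4, 66.2 and 68.4 CPM in uterus. The brain libraries lay within a narrow band far above all uterus libraries. The means were 197 ± 4.07 and 71.0 ± 5.07 CPM, 2.77-fold higher in brain, with a log2 fold change of -1.47 ± 0.06 (edgeR adjusted p = 1.8e-09), and the 2-fold test was passed under all 18 alternatives. Klf13 (ENSMUSG00000052040, chromosome 7, 63886351 to 63938915) stood at 158, 175, 169 and 169 CPM in brain and at 76.9, 81.5, 75.8 and 83.1 CPM in uterus. The organs were again apart, and brain library 1 was the lowest of its organ. The means were 168 ± 7.21 and 79.3 ± 3.54 CPM, 2.11-fold higher in brain, with a log2 fold change of -1.08 ± 0.05 (edgeR adjusted p = 9.3e-09). Its call against a 2-fold change was borderline (adjusted p = 0.0460) and held under 5 of 18 alternatives, with adjusted p from 0.00525 to 1. The ratio of Klf9 to Klf13 per length was 1.84 ± 0.0767 in brain and 1.40 ± 0.128 in uterus; all 4 brain ratios were above all 4 uterine ones.

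Klf7, a neuronal factor that promotes axon growth and is a close relative of Klf6, was only slightly higher in brain. Klf7 (ENSMUSG00000025959, chromosome 1, 64029447 to 64122282) stood at 39.3, 33.5, 34.7 and 40.6 CPM in brain and at 26.2, 28.0, 30.8 and 28.1 CPM in uterus. The organs did not overlap, but the lowest brain library and the highest uterus library were close. The means of 37.0 ± 3.44 and 28.3 ± 1.89 CPM differed 1.31-fold, with a log2 fold change of -0.39 ± 0.08 (edgeR adjusted p = 0.000891). That call ended with upper-quartile scaling (-0.13, adjusted p = 0.134) and with library sizes alone (-0.13, adjusted p = 0.168). On the opposite strand, the noncoding gene Gm26649 shares 3196 bases of exon with Klf7. The strand setting of the counting is not given in the sources used here, so reads of Klf7 and Gm26649 may not have been told apart. The ratio of Klf6 to Klf7 per length was 2.46 ± 0.255 in brain and 5.27 ± 0.233 in uterus, with no overlap between the organs.

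Klf15, a glucocorticoid-induced factor of amino acid and lipid metabolism, was the member without a call. Klf15 (ENSMUSG00000030087, chromosome 6, 90462576 to 90475238) stood at 21.3, 23.7, 24.7 and 22.8 CPM in brain and at 22.7, 29.8, 19.5 and 22.1 CPM in uterus. The brain values lay inside the uterine range, which uterus library 2 extended upward and library 3 downward. The means were 23.1 ± 1.43 and 23.5 ± 4.40 CPM, and the log2 fold change was 0.026 ± 0.12 (edgeR adjusted p = 0.846). The 95% interval from limma-voom ran from -0.25 to 0.27, so a difference of either sign within those bounds remained compatible with the data. With upper-quartile scaling and with library sizes alone Klf15 was called higher in uterus (0.28 in both, adjusted p = 0.0477 and 0.049). Without uterus library 2 the log2 fold change was -0.11 (edgeR adjusted p = 0.251). That library was the highest of the uterus for the gland markers, but also for the smooth muscle, macrophage and endothelial markers. In library 3, where Klf15 was lowest (deviation -0.25), the gland list stood above its organ mean (0.38). The part of any of these cell types was not tested.

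**Figure D2:**
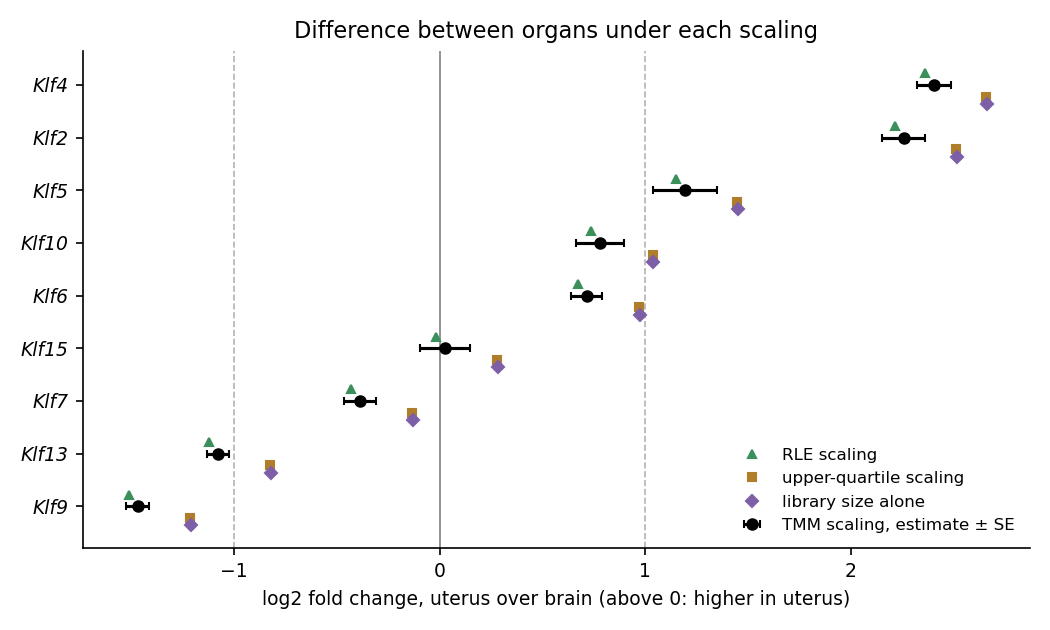
Log2 fold change of each member, uterus over brain, with the edgeR estimate ± SE under TMM (black) and the estimates under 3 other scalings (coloured); dashed lines mark a 2-fold change. Upper-quartile and library-size scaling lie to the right of TMM for all 9 members, which takes Klf7 from -0.39 to -0.13 and Klf15 from 0.026 to 0.28. The estimates of Klf2, Klf4, Klf5 and Klf9 stay beyond the dashed lines, although Klf5 missed the 2-fold test under TMM.

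The scaling moved the middle of all genes. Their median log2 fold change was 0.012 with TMM, -0.030 with RLE, 0.27 with upper-quartile scaling and 0.27 with library sizes. Among the 9 members, only Klf7 and Klf15 changed their call against no difference with the 3 other scalings.

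Levels of different genes were compared per length, as RPKM. In brain the order was Klf9 (40.8 ± 0.845 RPKM), Klf13 (22.3 ± 0.958), Klf6 (11.1 ± 1.17), Klf15 (8.29 ± 0.512), Klf10 (6.43 ± 1.04), Klf2 (5.10 ± 0.376), Klf7 (4.55 ± 0.423), Klf4 (2.78 ± 0.0806) and Klf5 (0.886 ± 0.155). The ranges of neighbours in this order were apart, except for Klf10 against Klf2 and Klf2 against Klf7. Klf10 was still above Klf2 in all 4 libraries, and Klf2 was above Klf7 in 3. In uterus the order was Klf2 (24.4 ± 3.21 RPKM), Klf6 (18.3 ± 0.763), Klf9 (14.7 ± 1.05), Klf4 (14.7 ± 1.48), Klf10 (11.1 ± 1.11), Klf13 (10.5 ± 0.470), Klf15 (8.43 ± 1.57), Klf7 (3.48 ± 0.232) and Klf5 (2.03 ± 0.303). Here the ranges of Klf9 and Klf4, Klf10 and Klf13, and Klf13 and Klf15 overlapped, although Klf13 was above Klf15 in all 4 libraries.

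**Figure D3:**
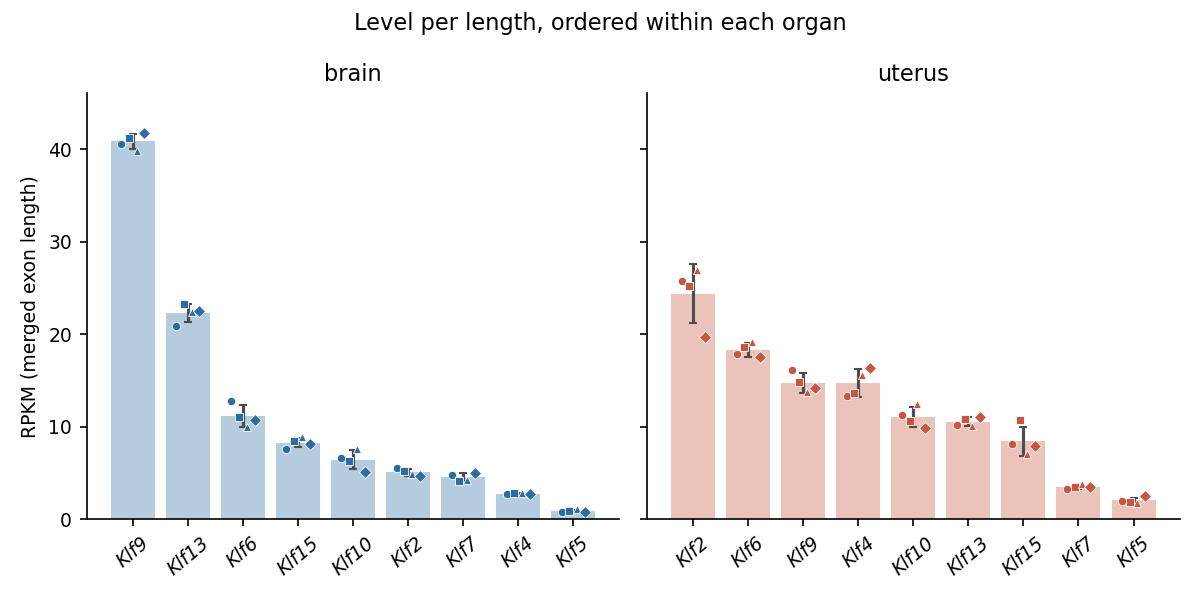
Level per length of the 9 members in brain (left) and uterus (right), as TMM-scaled RPKM on merged exon length, ordered by the mean of each organ; bars are means, error bars SD (n = 4) and points single libraries. In brain Klf9 and Klf13 stand above the rest at 40.8 and 22.3 RPKM, while in uterus Klf2 is first at 24.4 RPKM and the next members follow closely.

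The brain profile was dominated by a pair of genes, and the uterine profile was more even. As a share of the summed RPKM of the 9 members, which does not depend on the scaling, Klf9 took 39.9 ± 0.888% in brain and 13.7 ± 1.05% in uterus, and Klf13 took 21.8 ± 0.905% and 9.80 ± 0.713%. Klf2 took 4.99 ± 0.345% in brain and 22.6 ± 2.33% in uterus, and Klf4 took 2.72 ± 0.0596% and 13.7 ± 1.70%. The summed RPKM itself was 101 to 103 in brain and 102 to 110 in uterus with TMM, which overlapped, but 92.7 to 94.6 and 109 to 123 with library sizes alone, which did not. The order depended on the length used: with coding length in place of merged exons, 6 members kept their place in brain but 2 in uterus, where Klf9 and Klf13 then came first. Klf9 was first and Klf5 last in brain with every length tried, and Klf5 was last in uterus with each of them.

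The members differed in how far single animals spread. In brain, the SD of log2 CPM was smallest for Klf9 (0.030) and Klf4 (0.041) and largest for Klf5 (0.24) and Klf10 (0.24), with a median of 0.10 over all genes tested. In uterus it was smallest for Klf6 (0.060) and Klf13 (0.064) and largest for Klf15 (0.26), with a median of 0.14 over all genes. Klf2 and Klf4 deviated in opposite directions in uterus library 4, by -0.30 and 0.16 from their organ means. The mean deviation of 15 immediate early genes in brain libraries 1 to 4 was 0.40, 0.26, -0.25 and -0.41. Klf2 deviated by 0.13, 0.026, -0.043 and -0.11 in the same libraries and Klf6 by 0.20, -0.00041, -0.15 and -0.048, while Klf10 deviated by 0.065, -0.011, 0.26 and -0.32. Cell lists were also highest in brain library 1, where Klf2 and Klf6 were highest. These were microglia and macrophage (0.32), leukocyte (0.53) and endothelium (0.064). With 4 libraries an organ, no relation between these values was tested.

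**Figure D4:**
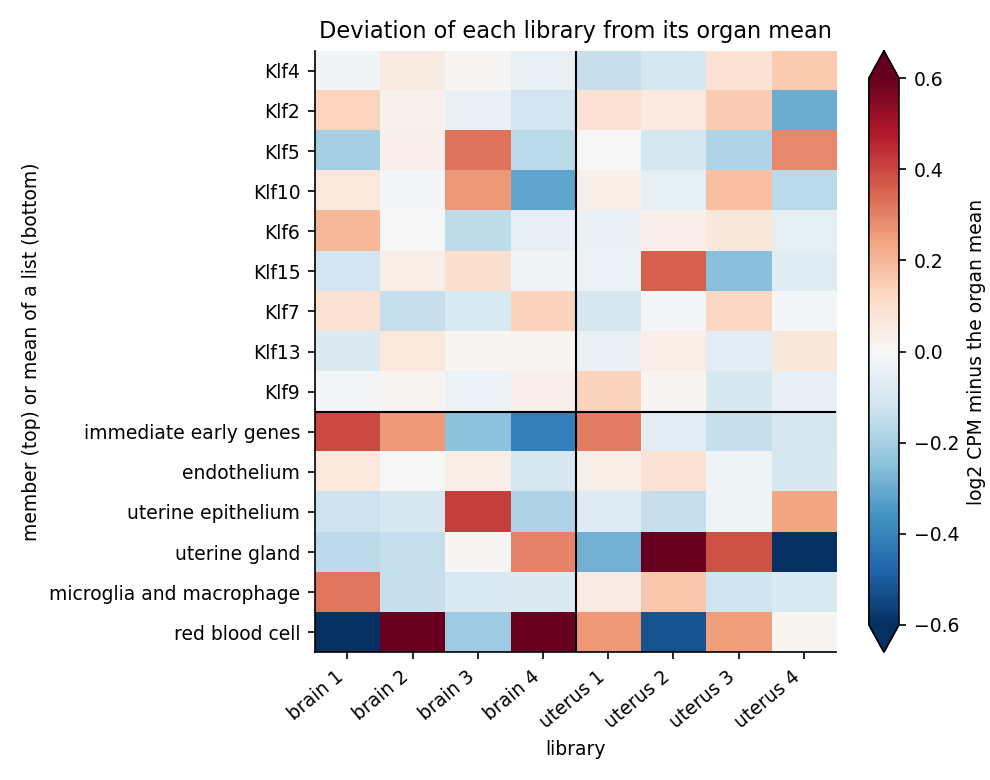
Deviation of log2 CPM from the mean of its organ in each library, for the 9 members (top) and for the mean of 6 gene lists (bottom); red is above and blue below the organ mean, and values past 0.6 share the end colour. The members stay within -0.32 to 0.36, while the gland list spans -1.26 to 1.17 in uterus.

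By a fixed rule, the 2 genes nearest to each member were those with the smallest root mean square distance of centred log2 CPM over the 8 libraries. This measure takes in the difference between the organs as well as the spread within them. Nearest to Klf2 were Tpm1 and St3gal1 (distances 0.10 and 0.10), and nearest to Klf4 were Anp32b and Mob1a (0.061 and 0.068). Klf5 was nearest to Nutf2 and Rbm24 (0.10 and 0.13), Klf6 to Odf2l and Supt20 (0.031 and 0.061), and Klf10 to G0s2 and Fastkd5 (0.095 and 0.10). For the members higher in brain, Klf9 was nearest to Fam210b and Camk2d (0.047 and 0.048), Klf13 to Tpi1 and Zmynd8 (0.040 and 0.042), and Klf7 to Macf1 and Txlng (0.054 and 0.062). Klf15 was nearest to Endov and Adat2 (0.066 and 0.082).

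The rest of the family held genes called toward each organ. Of all genes tested, 43.4% were called toward uterus and 43.5% toward brain, so this split lay near the background. Of 17 other KLF and SP genes in the table, 12 had at least 1 CPM in all 4 libraries of brain and 9 of these in all 4 of uterus. Of the 14 that were tested, 6 were higher in uterus, 6 were higher in brain, and Sp2 and Sp5 did not pass. Their median log2 fold change was 0.090, against 0.012 over all genes. Sp1, the widely expressed founder of the SP group, stood at 164 ± 1.54 CPM in uterus and 50.6 ± 3.68 in brain (log2 fold change 1.70 ± 0.06, edgeR adjusted p = 5.5e-10). Klf11, a close relative of Klf10 that TGF-beta also induces, stood at 23.1 ± 1.92 and 7.63 ± 0.602 CPM (1.60 ± 0.09). Klf3, a CtBP-dependent repressor, stood at 91.4 ± 6.72 and 43.0 ± 2.59 CPM (1.09 ± 0.07), its relative Klf8 at 11.6 ± 1.03 and 6.46 ± 0.239 (0.85 ± 0.10), and Sp3 at 97.3 ± 8.61 and 70.6 ± 2.34 (0.46 ± 0.07). Klf1, the erythroid member, was the other gene called toward uterus, at levels below 1 CPM in every library.

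Toward brain stood Sp4, a neuronal SP factor, at 38.1 ± 1.36 CPM against 9.57 ± 1.01 in uterus (-1.99 ± 0.08), and Klf12 at 7.49 ± 2.01 against 1.82 ± 0.147 (-2.04 ± 0.21). Klf16 was 35.9 ± 1.55 against 20.5 ± 1.37 CPM (-0.81 ± 0.06), and Sp7 was 3.37 ± 0.586 against 1.28 ± 0.247 (-1.39 ± 0.21). The interneuron factors Sp8 and Sp9 completed the genes called toward brain. Sp8 had 1238 counts over the 4 brain libraries and 0 in uterus, at least 409-fold higher against a limit of 3 counts over the 4 uterus libraries. Sp9 had 1259 and 2 counts, a ratio of 624 with an exact Poisson 95% interval of 173 to 5153, which covers counting error only. Sp2 stood at 13.3 ± 0.825 CPM in uterus and 13.8 ± 0.680 in brain, and its ranges overlapped (edgeR adjusted p = 0.515). Klf14, Klf17 and Sp6 were not tested, with at most 54 counts over an organ.

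**Figure D5:**
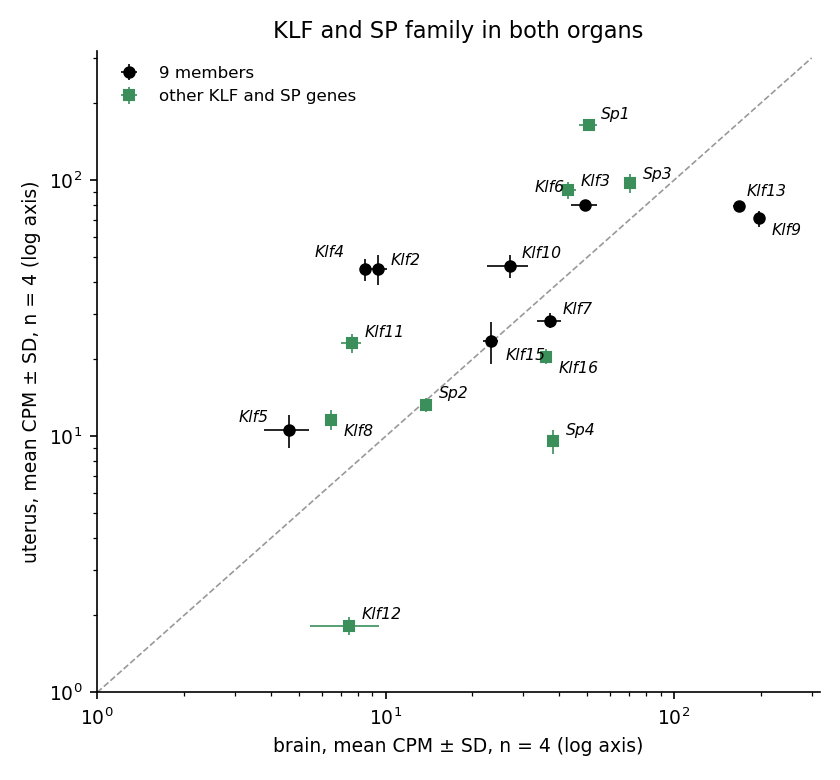
Mean CPM ± SD (n = 4) in brain and in uterus, both on log axes, for the 9 members (black) and the 9 other KLF and SP genes detected in both organs (green); the dashed line marks equal levels. Klf2, Klf4 and Sp1 lie farthest above the line and Sp4 and Klf12 farthest below it, with Klf15 and Sp2 close to it.

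Lists around the members were read by their counts and medians, beside a median of 0.012 over all genes tested. Calls over all genes tested were 43.4% toward uterus and 43.5% toward brain, or 50.8% and 37.0% with library sizes alone. The genes named from the lists passed the edgeR test with adjusted p of at most 0.0163. Values without a unit are log2 fold changes ± SE, uterus over brain. Some lists share genes, such as Cdkn1a and Dusp1. Of 12 corepressors and coactivators that KLF proteins bind, 6 were higher in uterus and 4 in brain (median 0.17), or 9 and 1 with library sizes alone. Hdac1, a histone deacetylase gene, was 115 ± 11.5 CPM in uterus and 30.1 ± 1.44 in brain (1.94 ± 0.08), Sap30 of the Sin3 complex differed by 1.33 ± 0.10, and the acetyltransferase gene Kat5 by -0.81 ± 0.05. Of 11 ubiquitin ligases and kinases that act on KLF proteins, 4 were higher in uterus and 6 in brain (median -0.22), or 5 and 5 with library sizes alone (median 0.033). Fbxw7, a ubiquitin ligase subunit for which Klf5 and Klf2 are substrates, was 204 ± 9.58 CPM in brain and 41.4 ± 8.88 in uterus (-2.30 ± 0.14). Egfr, a growth factor receptor gene, and Fbxo32, a ligase subunit gene, were higher in uterus by 2.55 ± 0.07 and 1.91 ± 0.08.

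Upstream regulators were called in both directions too. Of 11 tested genes of the ERK5, MEF2 and CCM module, which acts on Klf2 and Klf4 in endothelium, 4 were higher in uterus and 6 in brain (median -0.22), or 5 and 3 with library sizes alone (median 0.038). Heg1, a receptor that anchors the CCM complex, was 341 ± 44.4 CPM in uterus and 49.98 ± 2.07 in brain (2.77 ± 0.09), and the kinase gene Map3k3 differed by 1.51 ± 0.05. Mef2c, which neurons also express, was 420 ± 17.3 CPM in brain and 57.96 ± 5.21 in uterus (-2.86 ± 0.07). Of the 7 nuclear receptors known to act on Klf9 or Klf15, 3 were higher in uterus and 4 in brain (median -0.87). Esr1 and Pgr were higher in uterus by 6.00 ± 0.09 and 2.68 ± 0.18, and Nr3c2 was higher in brain (-4.08 ± 0.12). Of 10 genes that glucocorticoid or progesterone receptors induce, 4 were higher in uterus and 4 in brain (median 0.17), or 6 and 1 with library sizes alone. The extremes were Errfi1 (2.08 ± 0.14) and Sult1a1 (1.38 ± 0.19) toward uterus and the clock gene Per1 (-0.84 ± 0.13) toward brain.

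Known targets of Klf2 and Klf4 in endothelium stood mostly higher in uterus, with 8 of 10 against 2 in brain and a median of 2.38. Genes entered this list, and those of Klf4 and Klf5 and of Klf15 targets, whether the factors raise or lower them. The counts and medians of these lists therefore do not measure the action of the factors. Pecam1, a junction gene, was 271 ± 12.5 CPM in uterus and 25.2 ± 1.72 in brain (3.43 ± 0.06). Pecam1 and Tek of this list are also among the endothelial markers. Edn1, which encodes endothelin, differed by 2.79 ± 0.22, and S1pr1, a sphingosine phosphate receptor gene that brain cells outside vessels also express, was higher in brain (-1.47 ± 0.05). Of 10 tested epithelial targets of Klf4 and Klf5, 6 were higher in uterus and 3 in brain (median 2.74), or 7 and 0 with library sizes alone. Cdh1, Krt8 and Krt19 of this list are also among the epithelial markers, so the list is not independent of them. Cldn4, a tight junction gene, was 30.3 ± 2.89 CPM in uterus and 0.0231 ± 0.0267 in brain (10.30 ± 0.28), the keratin gene Krt19 differed by 7.85 ± 0.51, and Ptgs2, a prostaglandin synthase gene, by -0.87 ± 0.28. Of 10 tested metabolic targets of Klf15, 4 were higher in uterus and 4 in brain (median -0.15), or 5 and 3 with library sizes alone (median 0.11). Slc2a4, the insulin-dependent glucose transporter gene, and Acot1 were higher in uterus by 2.31 ± 0.24 and 2.15 ± 0.16, and the potassium channel partner gene Kcnip2 was higher in brain (-5.96 ± 0.24).

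Of 12 genes of TGF-beta signalling, which induces Klf10, 9 were higher in uterus and 2 in brain (median 0.84). Tgfbr2, a receptor gene, was 305 ± 22.1 CPM in uterus and 24.8 ± 1.14 in brain (3.62 ± 0.07). Tgif1, a corepressor of SMAD proteins, differed by 4.75 ± 0.16, and Skil, another one, by -0.83 ± 0.05. Among 15 immediate early genes, 7 stood higher in uterus and 4 in brain (median 0.44), among them Zfp36 (3.91 ± 0.24) and Atf3 (3.22 ± 0.31) toward uterus and Egr3 (-5.24 ± 0.20) toward brain. Of 11 genes tied to the action of KLF proteins on axon growth, 3 were higher in uterus and 8 in brain (median -3.67). Socs3 and Stat3, of the cytokine pathway, were higher in uterus by 3.91 ± 0.14 and 2.09 ± 0.06, and the axonal adhesion gene Cntn2 was higher in brain (-9.71 ± 0.44).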

How the data were processed

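Total RNA of whole organs was made into stranded libraries with ribosomal RNA removed, per the labels. The deposited file holds raw counts per gene, and per the submitters' processing notes the authors used FastQC, HISAT2 2.0.3, featureCounts and edgeR on GRCm38.p5. No annotation release, strand setting or treatment of multiply mapped reads is given in the sources used here.

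From these counts CPM and RPKM were computed. After the filterByExpr filter on low counts, the organs were compared by the quasi-likelihood F test of edgeR 4.0.16 (robust, TMM, two-sided, Benjamini-Hochberg over the 16074 genes left) and against a 2-fold change by glmTreat, in R 4.3.3. The SE was obtained from the log2 fold change and its F. Alternatives used DESeq2 1.42.0, limma 3.58.1, other scalings and filters, and fewer libraries. Gene models and lengths came from GENCODE M21 on GRCm38, which held 19774 of the 19884 identifiers. Promoters came from RefSeq (GRCm38.p6), cut to the 250 bases before the start. BLAST+ 2.17.0 at 98% identity over at least 150 nt found a match of a member only between Klf7 and Gm26649. The procedure was tested on simulated counts. All members were named, every other KLF and SP gene detected at 1 CPM in all 4 libraries of an organ, and from each pathway list the 2 called genes with the largest rise and the 1 with the largest fall, with at least 5 CPM in the organ where they were higher. The members and lists were chosen with earlier results of these data known. Per the labels each organ came from 4 mice, and p-values measure the spread between the 4 libraries of an organ.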

Additional observations from a re-analysis of the deposited data

How the results depend on the processing

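Upper-quartile scaling and library sizes alone gave 6 members toward uterus and 2 toward brain, and each of the other alternatives gave 5 and 3. Over all 18 alternatives 8 members kept the direction of their log2 fold change, and Klf15 did not. Its value was -0.017 with RLE scaling, -0.017 with DESeq2, 0.28 with upper-quartile scaling, and 0.28 with library sizes alone. It was -0.15 when brain library 1 and uterus libraries 2 and 4 were all left out, a setting chosen after the data were seen. Leaving out 1 library at a time gave -0.11 to 0.11. Klf7 was -0.13 with upper-quartile scaling and -0.13 with library sizes alone, no longer past the threshold. The number of members past the 2-fold test was 3 or 4 under every alternative. With coding length, 2 members kept their place in the uterine order, and 7 to 9 did when a uterus library was left out.

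With replicate number as a block (replicate block), 5 members were higher in uterus, 3 in brain, and 3 passed the 2-fold test, since Klf13 no longer did (adjusted p = 0.0516). The labels do not say that a number marks the same mouse, so the number was not taken as a pairing. Deviations of same-numbered brain and uterus libraries had correlations of -0.048, 0.0019, 0.083 and 0.074 over all tested genes. Those of differently numbered libraries ran from -0.084 to 0.10. These values cannot decide whether the libraries are paired, since organs of the same mouse need not deviate together. Each member had at least 147 counts in every library, and 4 libraries an organ limit the precision.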
